A study of Mus musculus with 8 samples.

Results

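Chromatin accessibility was examined at 10 genes that code for surface markers of stromal stem cells, out of 22380 protein-coding genes of the mouse annotation: Ly6a, Cd24a, Icam1, Vcam1, Thy1, Cd44, Eng, Itgav, Mcam and Alcam. The genes were taken by name and by their position in the build mm9, and the rule that picks them uses no measured value. The data were peak lists of 7 ATAC-seq libraries, titled ATAC1 to ATAC7, made from stromal cells of the bone marrow (wild type, strain C57BL/6J, age 6 weeks), and each list was called against the same Input library. ATAC-seq maps open DNA by letting the Tn5 transposase insert sequencing adapters into it. The study divided stromal cells that lacked CD31, CD45 and Ter119 into populations by CD24, CD39, CD54, Sca-1 and Ly-6C, so the products of Cd24a, Icam1 (CD54) and Ly6a (Sca-1) took part in the sort. The labels do not link a title to a sorted population, and libraries are called by their titles. Each title had 1 library, so no difference below has a replicate check, no test was possible, and the errors given are counting errors.

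These proteins are what antibodies recognise when stromal progenitors are separated from blood and endothelial cells of the marrow. They work as adhesion molecules, integrin subunits and co-receptors that hold stromal cells in the matrix and let blood cells dock on them, or as small proteins held by a lipid anchor. An ATAC-seq peak at the start site of a gene marks open DNA and is not a measure of its RNA or of the protein on the cell.

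The lists held 15188 peaks (ATAC7) to 32280 peaks (ATAC2), 164103 in total. The other lists had 24510 peaks in ATAC1, 16027 in ATAC3, 15650 in ATAC4, 31479 in ATAC5 and 28969 in ATAC6. Fold over Input, a ratio, is the authors' scaled library reads of a peak divided by its Input reads. Its median over the best-ranked start-site peak of each protein-coding gene was 5.89 in ATAC3 and in ATAC7, 6.32 in ATAC4, 8.63 in ATAC1, 8.73 in ATAC2, 11.9 in ATAC6 and 12.4 in ATAC5. Every fold of a gene below stands against this difference between libraries. A start-site peak is one whose centre lay within 1000 bases of an annotated start site. Of 20 stromal marker genes, 5 (ATAC3) to 13 (ATAC5) had one, of 20 haematopoietic markers 2 (ATAC2) to 9 (ATAC5), and of 20 endothelial markers 0 (ATAC3 and ATAC7) to 6 (ATAC5). Over all protein-coding genes the share was 42.0% (ATAC7) to 52.7% (ATAC5). Prrx1, Lepr, Dcn and Col3a1, which mark stromal cells, had none in any library, while the start of Ptprc, the gene for CD45, carried a peak in ATAC1, ATAC3, ATAC5 and ATAC7.

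The 10 genes fell into 3 classes. Cd24a, Cd44, Itgav and Alcam had a start-site peak in all 7 libraries, a pattern of 36.8% of protein-coding genes. Icam1, with 4 libraries, and Mcam, with 1 library, belonged to the 19.8% of protein-coding genes that had a start-site peak in 1 to 6 libraries. Ly6a, Vcam1, Thy1 and Eng lacked a start-site peak throughout, as did 43.4% of protein-coding genes. In all, 33 of 70 combinations of gene and library held a peak.

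Counted by library, 5 of the 10 genes had a start-site peak in ATAC1, where the share among all protein-coding genes was 49.0%. ATAC2 had 4 of 10 against 50.2%, ATAC3 had 4 of 10 against 43.5%, and ATAC4 had 4 of 10 against 43.6%. ATAC5 had 6 of 10 against 52.7%, ATAC6 had 5 of 10 against 51.5%, and ATAC7 had 5 of 10 against 42.0%. The share of surface marker genes was therefore near that of protein-coding genes in every library, and what set the genes apart from each other was which of them carried the peaks.

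**Figure D1:**
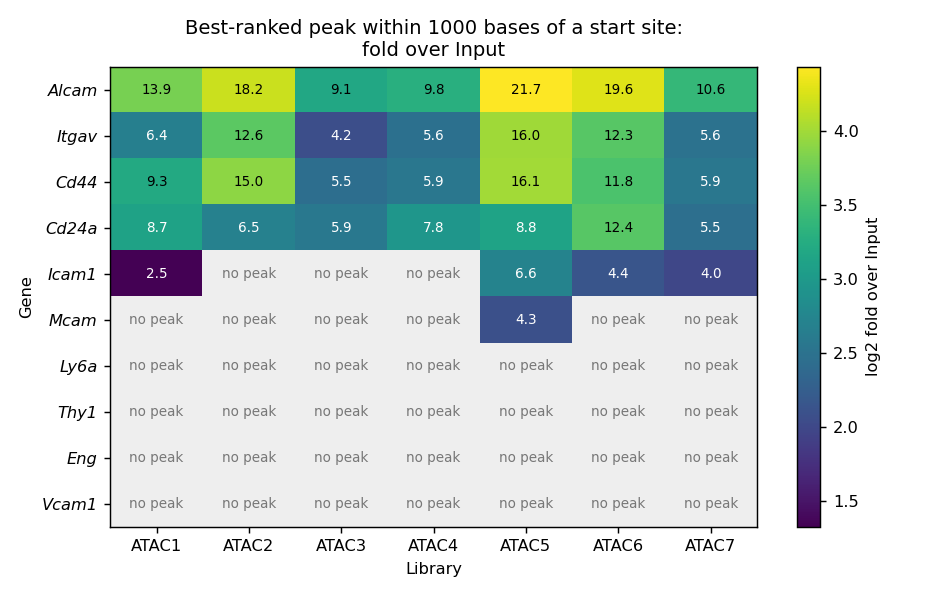
Fold over Input (colour, log2 scale, with the linear fold printed) of the best-ranked peak within 1000 bases of a start site, for the 10 genes (rows) in the 7 libraries (columns); grey cells had no called peak. Alcam, Itgav, Cd44 and Cd24a are filled across all libraries, Icam1 in 4, Mcam in ATAC5 alone, and the rows of Ly6a, Thy1, Eng and Vcam1 are empty.

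Alcam (chr16:52249109-52454187, minus strand) codes for CD166, an adhesion molecule that binds itself and the lymphocyte receptor CD6. Among the 10 genes its start site had the highest called fold in every library, but its 95% counting interval overlapped that of Cd44 in each. Its peak there reached a fold of 21.7 in ATAC5, 19.6 in ATAC6 and 18.2 in ATAC2, then 13.9 in ATAC1, and 10.6 in ATAC7, 9.78 in ATAC4 and 9.11 in ATAC3, from 406 to 1140 library reads. The first 3 lay above the last 3 beyond counting error, and ATAC1 lay between. This made up the 9 of 21 pairs of libraries whose 95% counting intervals were apart. Over all protein-coding genes with a start-site peak in all 7 libraries, the median was 8 of 21 pairs, with quartiles of 5 and 10. Measured against the median start site of the same library, the Alcam peak was 1.55 to 2.08 times as strong in all 7. On this scale the order of libraries changed, with 2.08 in ATAC2, 1.80 in ATAC7, 1.75 in ATAC5 and 1.64 in ATAC6. The peaks lay 492 to 584 bases upstream of an inner start site, within annotated untranslated sequence and not at its outermost start. At the outermost start a second, weaker peak was called in ATAC1, ATAC2, ATAC3 and ATAC5, with folds of 6.30 to 7.37 and 50 to 72 library reads.

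Upstream of Alcam, 2 further regions had Alcam as the nearest protein-coding start site. The one at chr16:52468650-52468796, 14532 bases upstream, was called in ATAC1, ATAC3, ATAC5 and ATAC6 with folds of 10.3 to 14.1. The other, 16286 bases upstream, was called in every library except ATAC6. Its library reads were 147 (ATAC1), 43 (ATAC2), 96 (ATAC3), 51 (ATAC4), 67 (ATAC5) and 61 (ATAC7), with 0 Input reads in each, so its fold is not a measure of strength. The reads of this region are given in place of the fold, and its sequence is shown because it was the most widely called region of Alcam away from a start site (mm9, chr16:52470405-52470604, minus strand, 5′ to 3′, 200 bases). Capitals mark matches to the motifs searched, here TGANTCA.

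Alcam upstream peak: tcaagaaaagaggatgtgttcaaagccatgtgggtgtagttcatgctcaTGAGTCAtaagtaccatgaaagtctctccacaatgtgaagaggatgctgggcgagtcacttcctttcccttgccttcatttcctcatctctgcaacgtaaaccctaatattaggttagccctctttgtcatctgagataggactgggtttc

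The motifs searched on both strands of the printed sequences were the TATA box with the letters TATAAA, the GC box with the letters GGGCGG, the CCAAT box with just these letters, AP-1 sites with the letters TGANTCA, CRE sites with the letters TGACGTCA, ETS sites with the letters CCGGAAG, Runx sites with the letters TGTGGT, the E-box with the letters CACGTG and NF-kB sites with the letters GGGNNTTCC. Matches of different motifs did not overlap in the printed sequences, and a match is a description of letters, not a bound site. The Alcam region held 1 match to TGANTCA, as did 23.0% of the same length at the centre of all regions away from start sites.

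Itgav (chr2:83564554-83647073, plus strand) codes for integrin αv, which pairs with one of several β subunits to bind vitronectin, fibronectin and osteopontin. Its start site was open in all libraries, and of the 4 genes called in all 7 it had the widest range of fold, also against the library medians. The fold was 16.0 in ATAC5, 12.6 in ATAC2 and 12.3 in ATAC6, against 6.37 in ATAC1, 5.63 in ATAC7, 5.58 in ATAC4 and 4.2 in ATAC3. ATAC2, ATAC5 and ATAC6 formed a high group with intervals that lay above those of the other 4 libraries. The highest fold was 3.80 times the lowest, and 13 of 21 pairs of libraries had intervals that did not overlap. Among the genes with a start-site peak in all libraries, 35.9% of such pairs lay apart, a median of 8 of 21, and the median ratio of the highest to the lowest fold was 2.87. Against the median start site of each library, the Itgav fold ran from 0.712 (ATAC3) to 1.45 (ATAC2), so the difference narrowed to 2.03 times. ATAC2, ATAC5 and ATAC6 still held the 3 highest values on this scale, but ATAC6, at 1.03, was close to ATAC7, at 0.956. The peak was also wide in the same 3 libraries, at 498 bases in ATAC2, 713 in ATAC5 and 753 in ATAC6 against 81 to 295 bases in the others.

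Around Itgav, most regions were called in these libraries. At 10150 bases upstream, chr2:83554236-83554506 was called in ATAC2, ATAC5, ATAC6 and ATAC7. Its fold was 40.0 in ATAC2 (95% interval 22.1 to 81.2), 38.5 in ATAC5 (24.7 to 63.7), 25.7 in ATAC6 (13.2 to 57.4) and 14.4 in ATAC7 (7.84 to 29.6). The 4 intervals overlapped in every pair, and ATAC1, ATAC3 and ATAC4 had no called peak there. In the introns, regions 17816, 20076 and 34233 bases from the nearest start site of Itgav were each called in ATAC2, ATAC5 and ATAC6 and in no other library. Of the peaks with Itgav as the nearest protein-coding start site, ATAC2 had 12, ATAC6 8 and ATAC5 6, while ATAC1 and ATAC7 had 3 each, ATAC3 2 and ATAC4 1. These libraries also had the 3 longest lists. With the best 15188 peaks of each list, the numbers were 5 in ATAC2, 4 in ATAC6, 3 each in ATAC5 and ATAC7, 2 in ATAC3 and 1 each in ATAC1 and ATAC4. The 4 calls of the upstream region remained, though that of ATAC7, whose whole list has this length, could not be lost. The intronic region at 20076 bases lost all 3 of its calls, and those at 17816 and 34233 bases kept 2 each. The upstream sequence is shown because it carried the highest fold of the gene (mm9, chr2:83554236-83554506, plus strand, 5′ to 3′, 271 bases, motif matches in capitals).

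Itgav upstream peak: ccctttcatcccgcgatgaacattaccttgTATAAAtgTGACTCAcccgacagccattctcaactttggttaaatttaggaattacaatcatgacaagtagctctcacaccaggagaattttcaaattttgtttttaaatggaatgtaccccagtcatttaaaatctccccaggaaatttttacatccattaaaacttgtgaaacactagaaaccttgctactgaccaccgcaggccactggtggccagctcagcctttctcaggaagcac

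It held 1 match to TGANTCA, which 28.0% of windows of that length held at the centre of regions away from start sites, and 1 match to TATAAA.

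Among the partners of the αv subunit, Itgb1 had a start-site peak in every library except ATAC5, with folds of 6.43 to 16.8. Itgb3 and Itgb5 had one in ATAC1, ATAC2, ATAC5, ATAC6 and ATAC7, with folds of 2.86 to 4.47 for Itgb3 and 2.98 to 6.46 for Itgb5, and Itgb8 had one in ATAC1, ATAC2, ATAC3, ATAC5 and ATAC6 with 4.83 to 11.5. Itgb6, an epithelial subunit, had none. Of the ligands, Fn1 (fibronectin) was called in all 7 libraries, Spp1 (osteopontin) in ATAC1, ATAC2 and ATAC6, and Vtn (vitronectin) in none. Of all 20 binding partners listed for the 10 proteins, 6 (ATAC4) to 12 (ATAC1) had a start-site peak. The shares over all protein-coding genes were 43.6% in ATAC4 and 49.0% in ATAC1.

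Cd44 (chr2:102651298-102741822, minus strand) codes for the hyaluronan receptor, which is found on stromal and blood cells alike. Its start-site fold was 16.1 in ATAC5, 15.0 in ATAC2 and 11.8 in ATAC6, then 9.31 in ATAC1, and 5.88 in ATAC7, 5.87 in ATAC4 and 5.47 in ATAC3. ATAC2, ATAC5 and ATAC6 each lay above ATAC3, ATAC4 and ATAC7 beyond counting error, which made up the 9 of 21 pairs that were apart. The median over genes with a start-site peak in all libraries was 8 of 21. ATAC1 lay between, with an interval that overlapped all others. Against the library median the fold was 0.928 (ATAC3) to 1.72 (ATAC2), with a median of 0.998. On this scale ATAC2 and ATAC5 (1.30) stayed highest, while ATAC6, at 0.990, fell below ATAC1 (1.08) and ATAC7 (0.998). Has2, which makes hyaluronan, had a start-site peak in ATAC2, ATAC5 and ATAC6, with folds of 13.8 to 18.9.

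Cd44 was the gene with the most peaks nearest to its own start site. Over the 7 libraries, 60 peaks lay in or within 50 kb of it, and for 55 of them its start site was the nearest of a protein-coding gene. By library these were 12 peaks in ATAC1, 11 in ATAC2, 10 in ATAC6, 7 in ATAC3, 6 each in ATAC4 and ATAC5, and 3 in ATAC7. With the best 15188 peaks of each list the order changed, with 7 in ATAC3, 6 in ATAC4, 5 in ATAC1, 4 in ATAC6, 3 each in ATAC5 and ATAC7, and 2 in ATAC2. Apart from the start site, 2 regions were called in every library. One lay in an intron 5890 bases from the nearest start (chr2:102734752-102735680). The other lay 42508 bases upstream (chr2:102784210-102784515), and of its 7 calls that of ATAC2 was lost with lists of equal length.

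At the upstream region the order of the point values was not that of the start site. The fold was 31.8 in ATAC1 (95% interval 17.5 to 64.5), 24.0 in ATAC5 (13.7 to 45.9), 22.7 in ATAC7 (12.1 to 48.1) and 20.6 in ATAC6 (10.1 to 49.1). It was 17.1 in ATAC4 (8.42 to 40.6), 16.5 in ATAC2 (8.33 to 37.2) and 12.7 in ATAC3 (6.22 to 30.3). The intervals of all 7 overlapped, since each rested on 8 to 13 Input reads, so an order of the libraries was not detectable at this depth. In each library the point value was above that of the Cd44 start site. A region 46840 bases upstream was called in ATAC1, ATAC2, ATAC3, ATAC4 and ATAC6 with folds of 8.07 to 15.1. The bases that all 7 upstream peaks share are shown because no other region of the 10 genes away from a start site was called in all libraries with a fold of at least 12.7 in each (mm9, chr2:102784301-102784438, minus strand, 5′ to 3′, 138 bases, motif match in capitals).

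Cd44 upstream peak: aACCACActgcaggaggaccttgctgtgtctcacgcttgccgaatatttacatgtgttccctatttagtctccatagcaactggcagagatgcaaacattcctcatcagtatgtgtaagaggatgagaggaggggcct

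It held 1 match to TGTGGT on the other strand, a motif found in 16.5% of windows of that length at the centre of regions away from start sites.

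**Figure D2:**
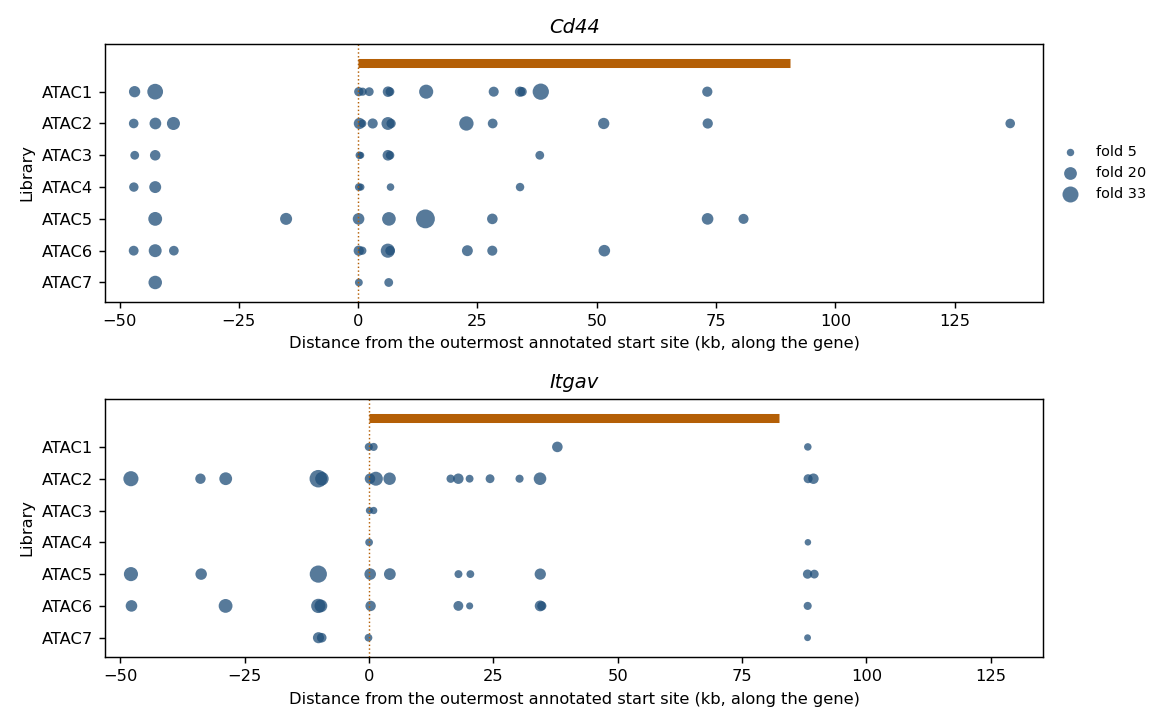
Peaks in and within 50 kb of Cd44 (top) and Itgav (bottom) in each library, by distance in kb from the outermost annotated start site along the gene; the bar is the gene, the dotted line its start, and point area rises with the fold over Input. The upstream region of Cd44, 42508 bases from the nearest start, is filled in all 7 libraries, while the upstream and intronic points of Itgav are mostly those of ATAC2, ATAC5 and ATAC6.

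Cd24a (chr10:43298975-43304068, plus strand) codes for CD24, a small glycoprotein on a lipid anchor that binds P-selectin and Siglec-G. Its start-site fold was 12.4 in ATAC6, 8.78 in ATAC5, 8.71 in ATAC1, 7.79 in ATAC4, 6.47 in ATAC2, 5.93 in ATAC3 and 5.52 in ATAC7. The intervals of the fold overlapped in 18 of 21 pairs, and the 3 pairs that were apart set ATAC6 above ATAC2, ATAC3 and ATAC7. Against the library medians ATAC6 no longer led, with 1.03 against 1.23 in ATAC4 and 1.01 in ATAC1 and in ATAC3, and ATAC5 was lowest with 0.709. Of the 4 genes open in all libraries Cd24a thus had the fewest pairs apart. The median was 8 of 21 over all protein-coding genes with a start-site peak in all libraries. Although CD24 was one of the sort markers, no library lacked the peak. In 6 libraries the peak centre lay within 59 bases of the start, and in ATAC2 the best-ranked peak lay 296 bases upstream. A weaker region 3970 bases upstream was called in ATAC1, ATAC2, ATAC4, ATAC5 and ATAC6, with folds of 6.03 to 7.16 and 41 to 64 reads. The genes for its partners, Selp and Siglecg, were called at the start in none of the libraries.

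The part of the Cd24a peaks before the start site is shown as an example of an open start (mm9, chr10:43298861-43298974, plus strand, 5′ to 3′, 114 bases, matches to GGGCGG in capitals).

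Cd24a peak: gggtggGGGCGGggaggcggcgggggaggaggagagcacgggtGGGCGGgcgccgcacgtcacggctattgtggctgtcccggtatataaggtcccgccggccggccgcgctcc

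It held 2 matches to the GC box, which 32.8% of windows of that length held at the centre of start-site regions. Its GC content was 76.3%.

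**Figure D3:**
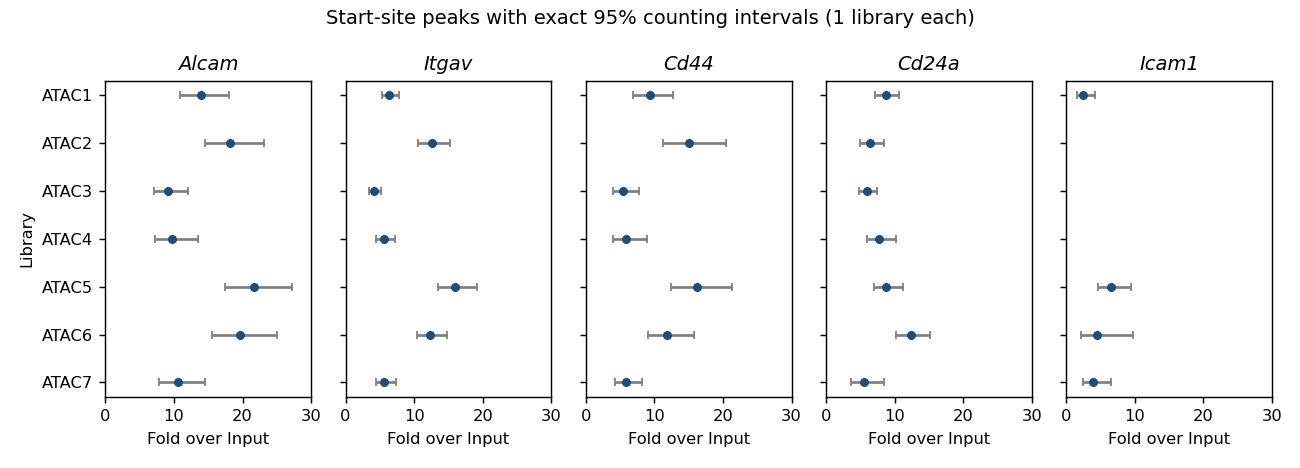
Fold over Input of the best-ranked start-site peak (points) with exact 95% counting intervals (bars) in each library, for the 5 genes with a start-site peak in more than 1 library; no point means no called peak. The folds are not scaled to the library medians: Itgav and Cd44 are high in ATAC2, ATAC5 and ATAC6 (against those medians Cd44 in ATAC6 is 0.990), the Cd24a intervals overlap in 18 of 21 pairs, and Icam1 does not exceed 6.56.

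Icam1 (chr9:20820404-20833241, plus strand) codes for CD54, the ligand of the leukocyte integrins made of Itgal or Itgam with Itgb2. Its start site was called in ATAC1, ATAC5, ATAC6 and ATAC7, with a weak best-ranked peak in each. The fold was 2.51 in ATAC1 (95% interval 1.52 to 4.22), 6.56 in ATAC5 (4.63 to 9.49), 4.43 in ATAC6 (2.17 to 9.78) and 3.96 in ATAC7 (2.49 to 6.51), from 51, 157, 31 and 86 library reads. These were 0.290 to 0.671 times the median start site of the library. The 4 intervals overlapped in 5 of 6 pairs, and only ATAC1 and ATAC5 lay apart. In the ATAC5 list 4 separate peaks lay within 1000 bases of the start, against 1 in each of the others. Besides the best-ranked one, the ATAC5 peaks had folds of 5.85, 8.03 and 8.48, against a library median of 12.4. The best-ranked peaks lay in the 231 bases before the start in ATAC1, ATAC5 and ATAC7, while that of ATAC6 was centred 548 bases upstream.

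The calls at Icam1 stood low in 3 of the lists, 83.4% of the way down in ATAC1, 96.0% in ATAC6 and 85.9% in ATAC7, and 42.4% down in ATAC5. When every list was limited to its best 15188 peaks, only the calls of ATAC5 and ATAC7 were left, and with a fold of at least 5 only that of ATAC5. The whole ATAC7 list held 15188 peaks, so its call could not be lost by the first limit. A set of libraries equal to that of Icam1 was shared by 7 other protein-coding genes, none of them in the lists compared here. Its window of 50 kb was crowded by neighbours. The strongest shared region, chr9:20834893-20835410 beyond the end of the gene, was called in all 7 libraries with folds of 6.62 (ATAC3) to 20.4 (ATAC5), but the nearest start sites were those of Icam4 and Icam5. Of 59 peaks in the window over all libraries, 8 had Icam1 as the nearest protein-coding start site.

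The sequence before the start site is shown because this start was called in some libraries and not in others (mm9, chr9:20820154-20820403, plus strand, 5′ to 3′, 250 bases, matches to TATAAA and GGGCGG in capitals).

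Icam1 start: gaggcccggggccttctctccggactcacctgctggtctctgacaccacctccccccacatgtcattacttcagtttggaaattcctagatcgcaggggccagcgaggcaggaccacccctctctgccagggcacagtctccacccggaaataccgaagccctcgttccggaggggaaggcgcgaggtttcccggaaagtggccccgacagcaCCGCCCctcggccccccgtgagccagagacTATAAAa

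TATAAA was present in 12.3% and GGGCGG in 40.1% of the 250 bases before the start of all protein-coding genes. The integrin genes on the other side of this bond, which belong to leukocytes, were called at their start sites in ATAC1, ATAC2, ATAC3 and ATAC5 (Itgb2), in ATAC3 and ATAC5 (Itgam) and in ATAC1 (Itgal). The sort had removed cells with CD45, and the part of leukocytes in the Icam1 calls was not tested.

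Mcam (chr9:43942552-43950810, plus strand) codes for CD146, which marks pericytes and endothelium. It had a start-site peak in ATAC5 alone, with 72 library reads against 29 Input reads and a fold of 4.25 (95% interval 2.73 to 6.79), 0.343 times the median start site of that library. The peak stood at rank 29430 of 31479 and was lost when the list was shortened to the best 15188 peaks or when a fold of at least 5 was asked for. Further peaks lay 4252 bases upstream, with a fold of 5.82, and 8158 bases upstream, with a fold of 17.4 from 61 library and 6 Input reads. These were also called in ATAC5 alone and had Mcam as the nearest protein-coding start.

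A start-site peak in ATAC5 and in no other library was shared by 298 other protein-coding genes. Of the genes in the lists compared here they were Pecam1 and Kdr, both endothelial, Cd34, which marks endothelial and blood progenitors, Cd79a of B cells and Twist2 of mesenchyme. Of 20 endothelial markers, ATAC5 had 6 with a start-site peak, namely Pecam1, Kdr, Erg, Esam, Egfl7 and Vwf, against 0 to 3 in the other libraries. ATAC5 also had the highest counts of haematopoietic markers, 9 of 20, and of stromal markers, 13 of 20, and the highest share of all protein-coding genes, 52.7%. The other 14 endothelial markers, Cdh5 and Tek among them, were not called at the start in any library. The sort had removed cells with CD31, the product of Pecam1, and whether endothelial cells had a part in the Mcam peaks was not tested.

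Ly6a (chr15:74825308-74828064, minus strand) codes for Sca-1, a lipid-anchored protein and a sort marker of the study. No library had a peak at its start site, and no peak at all had Ly6a as the nearest protein-coding start. The closest region lay 5694 bases beyond the end of the gene (chr15:74818791-74819727) and was called in ATAC1, ATAC3, ATAC4 and ATAC5. The highest folds there were 13.7 in ATAC1, 10.2 in ATAC3, 6.53 in ATAC4 and 11.6 in ATAC5. Its nearest protein-coding start was that of Ly6i, 5106 bases away. Over all libraries 18 peaks lay within 50 kb of Ly6a, and ATAC7 had none.

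Ly6a has a near copy in its cluster. The 1001 bases around the Ly6a start had 1 other match in the genome of at least 100 bases at 90% identity or more. It was 1005 bases long, 94.4% identical and covered 100% of the window, on chr15:74878469-74879470 at Ly6c1. No library had a peak there either. How the alignment treated reads with several matches is not given in the sources used here, and the part of this copy in the missing peak was not tested. Of 12 other genes of the cluster, Ly6e had a start-site peak in every library except ATAC7, Lynx1 had one in all 7, and 10 had none. The sequence before the Ly6a start is shown as that of a sort marker with no peak (mm9, chr15:74828065-74828314, minus strand, 5′ to 3′, 250 bases, matches to CCAAT on either strand in capitals).

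Ly6a start: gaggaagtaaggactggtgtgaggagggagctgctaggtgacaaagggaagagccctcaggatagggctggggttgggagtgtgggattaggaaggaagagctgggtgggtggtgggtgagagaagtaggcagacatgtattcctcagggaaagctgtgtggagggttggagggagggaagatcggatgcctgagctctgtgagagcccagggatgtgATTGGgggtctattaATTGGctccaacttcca

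CCAAT had 2 matches here and was present in 35.0% of the 250 bases before the start of all protein-coding genes.

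Vcam1 (chr3:115812938-115832606, minus strand) codes for CD106, the docking site on stroma for blood cells that carry integrin α4. It had neither a start-site peak nor any peak in or within 50 kb in any library, which was the case for 18.7% of protein-coding genes. In a window of 100 kb, 14 peaks were counted over the 7 libraries. Itga4, which codes for its receptor subunit, had a start-site peak in all 7 libraries, with folds of 4.01 to 12.8. The sequence is shown as that of the start with the emptiest surroundings (mm9, chr3:115832607-115832856, minus strand, 5′ to 3′, 250 bases, match to TGANTCA in capitals).

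Vcam1 start: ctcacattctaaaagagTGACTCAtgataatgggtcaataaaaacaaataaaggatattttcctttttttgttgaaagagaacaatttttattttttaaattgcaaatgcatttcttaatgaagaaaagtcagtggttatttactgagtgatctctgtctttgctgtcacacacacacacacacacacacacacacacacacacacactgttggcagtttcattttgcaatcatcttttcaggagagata

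The sequence contained no CpG and had a GC content of 33.2%. TGANTCA was present in 5.88% of the 250 bases before the start of all protein-coding genes.

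Thy1 (chr9:43851467-43856662, plus strand) codes for CD90, a lipid-anchored protein used to define mesenchymal cells in culture. It had no start-site peak, and none of the 19 peaks within 50 kb had it as the nearest protein-coding start. All of these lay beyond the end of the gene, at least 18356 bases away. The regions nearest to the start sites of Usp2 were called in all 7 libraries, with folds of 3.11 to 9.83 at chr9:43874933-43875191 and 2.29 to 5.55 at chr9:43892527-43893086. The second of these also lies within 50 kb of Mcam, so the windows of both genes share peaks. The sequence before the Thy1 start is shown for comparison with the open start of Cd24a (mm9, chr9:43851217-43851466, plus strand, 5′ to 3′, 250 bases, matches to CCAAT on either strand in capitals).

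Thy1 start: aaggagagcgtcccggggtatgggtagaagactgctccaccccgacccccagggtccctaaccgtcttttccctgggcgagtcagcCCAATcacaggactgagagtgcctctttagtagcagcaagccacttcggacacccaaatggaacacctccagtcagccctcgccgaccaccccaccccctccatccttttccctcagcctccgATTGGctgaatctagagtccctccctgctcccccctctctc

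Eng (chr2:32502115-32538189, plus strand) codes for endoglin or CD105, a co-receptor that presents ligands of the TGF-β family to its signalling receptors. It lay among many peaks and had none at its own start. Of 82 peaks in or within 50 kb over all libraries, the highest number of the 10 genes at this distance, 3 had Eng as the nearest protein-coding start. Within 20 kb Eng had 27 peaks, fewer than Cd44 with 45, Itgav with 41 and Icam1 with 37. The 3 peaks nearest to Eng formed 1 region at chr2:32535685-32535887 over a coding exon and intron, 1109 bases from an inner start site. The fold was 15.5 in ATAC2 (95% interval 6.73 to 44.0), 13.5 in ATAC5 (6.44 to 32.6) and 15.2 in ATAC6 (6.58 to 43.2), with intervals that overlapped. With start sites counted out to 2000 bases these were the 3 calls that Eng gained. The other peaks had the start sites of St6galnac6, Ak1, Fpgs, Cdk9 or Sh2d3c as the nearest. Of the receptors that work with endoglin, Tgfbr1 and Tgfbr2 had a start-site peak in all 7 libraries, with folds of 11.1 to 27.5 and 2.96 to 11.7, and Acvrl1, the partner on endothelium, had none.

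The lists name called peaks only, so a start without a peak has no read count and cannot be given a level. The least reads of any called peak were 21 (ATAC5) to 28 (ATAC7), and a start below the limits of the caller was not detectable at this depth.

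Within 50 kb, 9 of the 10 genes had at least 1 peak in each of ATAC1 to ATAC6 and 8 in ATAC7. Among protein-coding genes the shares were 77.6% (ATAC5), 77.4% (ATAC2), 76.5% (ATAC6), 73.7% (ATAC1), 68.5% (ATAC3), 67.9% (ATAC7) and 67.8% (ATAC4). The summed peaks within 50 kb of the 10 genes were 75 in ATAC5, 67 in ATAC2 and in ATAC6, 54 in ATAC1, 34 in ATAC3, 32 in ATAC4 and 31 in ATAC7. They moved with the length of the lists. With the best 15188 peaks of each list, the 7 sums were 30 (ATAC2) to 34 (ATAC5). The median number per gene was 2 to 6 across the libraries for the surface markers and 1 to 3 for all protein-coding genes, whose windows differ in length.

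**Figure D4:**
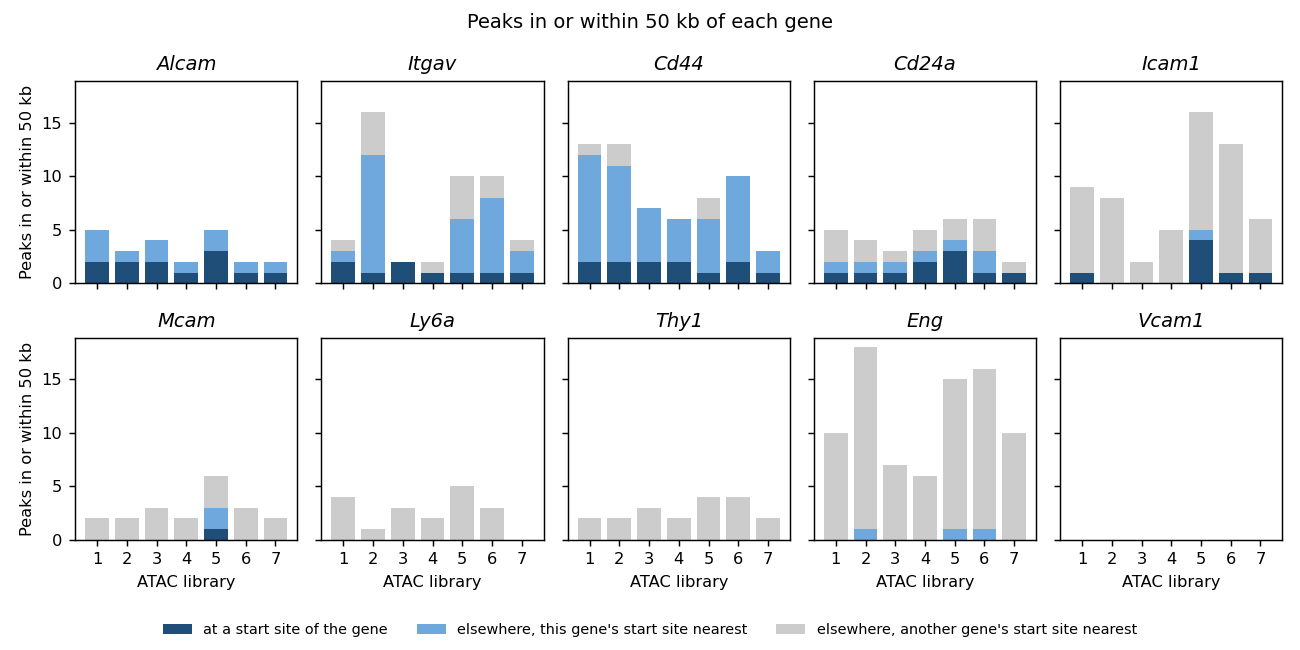
Number of peaks in or within 50 kb of each gene by ATAC library, split into peaks at a start site of the gene (dark blue), other peaks whose nearest protein-coding start site is that of the gene (light blue) and peaks nearest to another gene (grey). Alcam has no grey and Cd44 little, while the bars of Ly6a and Thy1 are grey throughout, Eng has 3 light blue peaks, and Vcam1 has no bar.

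The start sequences differed in CpG content in a way the choice of genes had not used. The ratio of observed to expected CpG was taken in a window from 250 bases before to 50 bases after the outermost protein-coding start. Its median was 0.813 in protein-coding genes with a start-site peak in all 7 libraries, 0.630 in those with 1 to 6 and 0.216 in those with none. Cd24a had 0.812 and Itgav 0.708, at the level of open genes, and Icam1 had 0.631. Ly6a had 0.0565, Vcam1 0.107 and Eng 0.202, all under the median of genes with no peak. Inner starts lay above that median, with 0.278 for Vcam1 and 0.285 to 0.714 for Eng.

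Some genes stood away from their class. Cd44 was open in all libraries with a ratio of 0.246 at its outermost start, below the lower quartile of 0.664 of such genes, and its inner start sites had ratios up to 0.574. Alcam had 0.384 at the outermost start, where its weak peak lay, and 0.737 and 0.797 at the inner starts next to its strong peak. Mcam had 0.729 with a peak in 1 library. Thy1, with no peak, had 0.418, above the upper quartile of 0.399 of genes with none. The inner start of Eng at position 32502478 had 0.714 and no peak in any library.

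**Figure D5:**
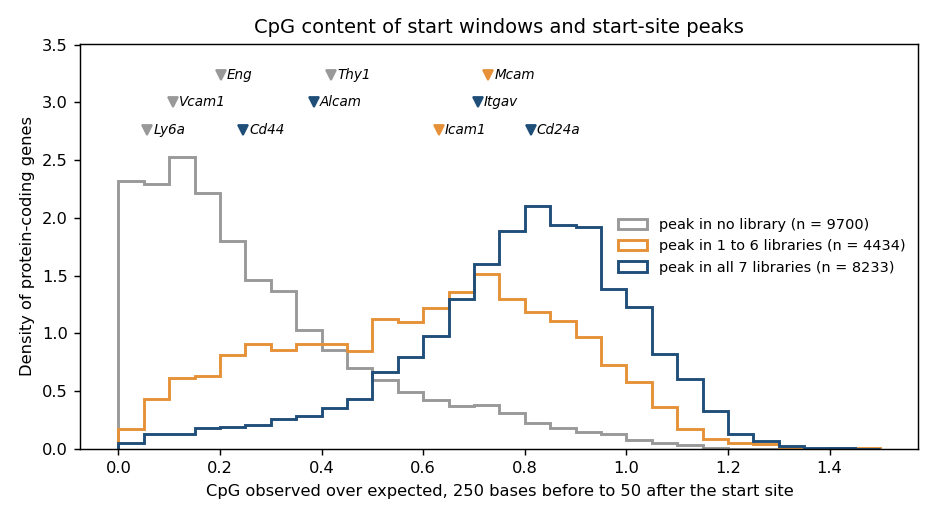
Density of the observed over expected CpG ratio at the start windows of protein-coding genes with a start-site peak in all 7 libraries (blue), in 1 to 6 (orange) and in none (grey); triangles above give the surface marker genes in the colour of their class, at heights that carry no value. Ratios over 1.5 are drawn at 1.5. Cd24a and Itgav lie in the range of the blue curve and Ly6a, Vcam1 and Eng in that of the grey one, while Cd44 and Alcam, both blue, lie left of most blue genes.

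Other surface genes of stromal cells also fell into these 3 classes. Of 20 further genes, 9 (ATAC3 and ATAC4) to 14 (ATAC2 and ATAC5) had a start-site peak, and with a fold of at least 5 these became 2 (ATAC3) to 13 (ATAC2). Without that fold limit, the shares over all protein-coding genes were 43.5% in ATAC3, 43.6% in ATAC4, 50.2% in ATAC2 and 52.7% in ATAC5. Nt5e, Cdh2, Cd81, Cd63, Entpd1, Sdc4 and Itga5 had one in all 7 libraries, and Lepr, Ngfr, Pdpn, Bst1 and Itga11 in none. Entpd1 codes for CD39, another sort marker of the study, and its folds were 5.77 to 18.0.

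Among the 8 genes of this list that were called in some libraries, Fap, a protease of activated fibroblasts, had a peak in ATAC2, ATAC5, ATAC6 and ATAC7 with folds of 4.24 to 23.0. Pdgfra, whose product was used with Sca-1 to define the stromal fraction, was called in ATAC2, ATAC4, ATAC5, ATAC6 and ATAC7 with 5.91 to 12.4. Pdgfrb was called in ATAC1, ATAC2, ATAC5, ATAC6 and ATAC7 with 5.88 to 15.0, and the cadherin gene Cdh11 in every library except ATAC7 with 4.71 to 12.2. The tetraspanin gene Cd9 was called in ATAC1, ATAC2, ATAC3, ATAC5 and ATAC6 with 2.48 to 5.29. Cd200, an inhibitory ligand, was called in ATAC2 and ATAC6 with up to 11.8, Cspg4 (NG2 of pericytes) in ATAC2 and ATAC5 with 4.91 to 5.26, and Cd34 in ATAC5 with 3.42. Of these 8, ATAC5 had all but Cd200 and ATAC2 all but Cd34, which were also the libraries with the longest lists.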

How the data were processed

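ATAC-seq libraries were made from 7 samples of bone marrow stromal cells, with 1 Input library as control. Reads were aligned by the authors to mm9 (bowtie), and CisGenome called the peaks of every library against Input at a p-value limit of 1e-05 and an FDR under 0.01. Tn5 shifting and duplicate removal are not given in the sources used here. Without a shift, the edges of peaks would differ slightly. The submitters' processing notes also name DiffBind and bedtools. The extraction text in the labels describes an RNA kit, whereas the study's methods describe transposition, which was followed here.

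What each column of the peak tables holds was worked out from its values, since no column is named. For every peak the deposited tables give read counts, that of the library and that of Input, as the authors' caller made them over a wider region around the peak. The authors' fold is the ratio of library reads, scaled per library, to Input reads with 0.01 added. Deposited signal columns of the peak caller were used only through the deposited ranks. All 164103 peaks equalled the deposited coordinate lists.

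Peaks were assigned with the NCBIM37 (mm9) genome and GENCODE vM1: a start-site peak had its centre within 1000 bases of any annotated start of the gene, and windows were the gene with 50 kb on each side. Nearest genes were found among the starts of 22380 protein-coding genes. Peaks sharing at least 1 base were merged into regions. Fold intervals are exact 95% (Clopper-Pearson) intervals of the 2 read counts. They cover counting error only, and libraries share the Input reads. Sequences were read with samtools 1.23.1, and motif shares are over windows of equal length. Sequences are printed before the start site or away from genes, so that none holds an exon. Copies were searched with blastn 2.17.0. Python 3.11.15 was used, together with pandas 2.3.3, numpy 2.4.6, scipy 1.17.1 and matplotlib 3.10.9. The assignment was tested on simulated data.

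The genes, lists and motifs were chosen with earlier results of these data known. Genes named besides the 10 were the other surface genes called in 1 to 6 libraries, listed genes with the same set of libraries as Icam1 or Mcam, binding partners, and genes nearest to a described peak. Some of the markers of cell types and the surface genes called in all or none were named after their values were seen. The alternatives were other distances, a fold of at least 5, lists of equal length, coding transcripts only, another offset and summed reads.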

Additional observations from a re-analysis of the deposited data

How the results depend on the processing

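No paired analysis was possible because no title had more than 1 library and no test was run. Of 264 values recomputed under 12 alternatives, 208 stayed within 1.5 times the reported count or within the counting interval of the fold, and 56 did not. The 33 combinations with a start-site peak became 28 with a fold of at least 5, 30 with lists of equal length or a distance of 500 bases, and 36 with 2000 bases. The summed peaks around the 10 genes moved more. For ATAC1 to ATAC7 in order, they were 35, 41, 18, 18, 47, 33 and 14 within 20 kb, and 23, 29, 15, 12, 30, 25 and 10 when the own start site had to be nearest. Within 100 kb they were 82 in ATAC1 and 52 in ATAC3. With a fold of at least 5 they were 19 in ATAC3, 20 in ATAC4 and 20 in ATAC7. With lists of equal length they were 32 in ATAC1, 30 in ATAC2, 34 in ATAC5 and 33 in ATAC6. With a fold of at least 5, the other surface genes with a start-site peak fell to 6 in ATAC1, 2 in ATAC3, 4 in ATAC4 and 4 in ATAC7. The counts of peaks nearest to Itgav and Cd44 in lists of equal length were a further alternative chosen after seeing the data, and the order of libraries for Cd44 changed under it. Narrower windows, wider windows and shorter lists change these sums by construction. Depth was known only inside called peaks, and 1 library per title leaves differences between animals or sorts unmeasured.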
